A study of Mus musculus with 19 samples.

Results

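Tgif1 and Tgif2 belong to the TALE homeobox genes, a class of transcription factor genes whose homeodomain carries an extended loop. The 9 genes Tgif1, Tgif2, Meis1, Meis2, Meis3, Pbx2, Pbx3, Pknox1 and Pknox2 were taken by symbol from the 32694 genes of the deposited expression table. All 9 were present, and each was at or above 30.7 normalized counts in every library, so none was lost to the filter on low values, which left 18445 genes for testing.

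RNA was sequenced from colon of mice of 12 weeks of age in 19 libraries. Wild-type colon came from 5 mice, 3 female and 2 male. Tumours of the Apc group came from 7 mice, 3 female and 4 male, in which Villin-Cre had deleted 1 Apc allele. Tumours of the Apc/Tgif group came from another 7 mice, 3 female and 4 male, in which Villin-Cre had deleted 1 allele of Apc and the 2 alleles of each of Tgif1 and Tgif2. The loss of 1 Apc allele is thus shared by both tumour groups, and a wild-type colon with Tgif1 and Tgif2 deleted was not analysed here. Villin-Cre is active in intestinal epithelium, so muscle, nerve, stromal and immune cells in a piece of tissue keep their alleles. Each library is 1 mouse, and the replicates are therefore separate animals. None of the sources used here gives the exons of Tgif1 and Tgif2 that were removed.

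TGIF proteins bind DNA through the homeodomain and act mainly as repressors. They recruit histone deacetylases and other corepressors, compete at retinoid response elements, and bind active Smad proteins, by which they limit transcription in response to TGF-beta. PBX proteins form dimers with MEIS or PKNOX proteins and, on DNA, with Hox proteins, and in this way set position along the body axis. In the gut wall, PBX and MEIS genes are also known from muscle, stroma and enteric neurons, while Apc loss acts through Wnt signalling in the epithelium.

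Units are normalized counts, which are reads per gene divided by a factor for each library. Values are not divided by gene length unless stated, so they compare a gene between libraries and not one gene with another. Changes are log2 fold changes of normalized count + 1 from limma, with p-values adjusted over the 18445 genes (Benjamini-Hochberg) and a threshold of 0.05. Library totals lay between 34417808 and 44732717 normalized counts, about 28700000 to 49100000 counts.

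Tgif1 and Tgif2 are close relatives, and their homeobox shows how far reads from one could be taken for the other. The stretch printed here, from the transcripts of the GENCODE annotation (GRCm38), codes for most of the homeodomain in each gene, written 5′ to 3′ with the bases that differ between the genes in capitals.
Tgif1: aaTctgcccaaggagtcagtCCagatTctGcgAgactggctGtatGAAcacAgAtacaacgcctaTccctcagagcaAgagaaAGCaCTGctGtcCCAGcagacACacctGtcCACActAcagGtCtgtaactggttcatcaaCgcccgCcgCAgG
Tgif2: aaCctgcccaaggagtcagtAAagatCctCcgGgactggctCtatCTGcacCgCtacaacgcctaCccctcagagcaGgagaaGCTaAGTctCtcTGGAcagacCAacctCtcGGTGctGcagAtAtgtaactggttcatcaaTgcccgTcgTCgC
The stretches are 156 bases long and differ at 40 of them. They are 74.4% identical in DNA, 44 of the 52 codons give the same residue, and the longest run of identical bases is 17. Sequencing reads were 75 bases long, so no read from this stretch was the same in the 2 genes, and over all annotated transcripts no 75-base word of any of the 9 genes was shared with another of the 9. Tgif1 shared 0 of its 6043 words of that length with any other gene. Tgif2 shared 64.4% of its 3818 words with other annotated genes, mainly with 5430405H02Rik (54.1%), a non-coding transcript on the opposite strand that overlaps it, and with Tgif2-ps2 (15.1%), an annotated pseudogene. None of the sources used here says whether counting used strand, so reads of Tgif2 and 5430405H02Rik could be exchanged. The row of 5430405H02Rik had a mean of 85.4, 112 and 120 normalized counts in wild-type colon, Apc and Apc/Tgif tumours, and none of its differences passed the test (limma adjusted p = 0.173, 0.172 and 0.9996, the last between the tumours). Tgif2-ps2 was named after values had been seen. It was not among the genes with deposited values, so its counts could not be examined here.

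The promoters are shown because both genes rose in Apc tumours. Each window is the 250 bases before a start site, from RefSeq on GRCm38.p6, 5′ to 3′ on the gene's strand, with TGTCA, the core bound by TGIF and MEIS proteins, in capitals on either strand (TGACA on the other).
Tgif2 at chr2:156839757-156840006, plus strand: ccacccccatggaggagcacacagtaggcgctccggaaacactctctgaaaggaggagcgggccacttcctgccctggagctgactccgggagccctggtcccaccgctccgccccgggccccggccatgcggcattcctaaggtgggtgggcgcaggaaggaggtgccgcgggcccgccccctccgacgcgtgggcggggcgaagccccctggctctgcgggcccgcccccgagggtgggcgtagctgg
Tgif1, second start site at chr17:70851735-70851984, minus strand: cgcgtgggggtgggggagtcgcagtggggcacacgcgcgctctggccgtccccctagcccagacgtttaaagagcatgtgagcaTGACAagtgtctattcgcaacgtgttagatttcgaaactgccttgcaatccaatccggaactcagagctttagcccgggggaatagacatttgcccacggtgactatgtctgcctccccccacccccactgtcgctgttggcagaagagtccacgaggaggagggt
The Tgif2 window is 74% G or C, holds the GC box GGGCGG 4 times counting both strands, and holds no TGTCA. The Tgif1 window is 58.8% G or C and holds TGTCA once, at position -166. Of 32851 promoter windows of this length, 39.95% held TGTCA and 32.74% held GGGCGG, so holding either motif does not set a window apart. The TCF/LEF motifs CTTTGAT and CTTTGAA, held by 3.205% and 4.456% of all windows, were in neither of the printed windows. Of the windows of the other 4 Tgif1 start sites, the one of start site 5 holds CTTTGAT once, at position -151. These 4 windows overlap exons of Tgif1 and are not printed. Of the 9 genes, 6 had an entry in the promoter table; Pbx3, Pknox1 and Pknox2 had none.

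Tgif1 (ENSMUSG00000047407.17, chromosome 17, 70844205 to 70853546, GRCm38, minus strand) was the member whose level parted the 3 groups in both directions. In wild-type colon the 5 libraries read 894, 828.8, 885, 1032 and 1181 normalized counts. In Apc tumours the 7 libraries read 3939, 4965, 4734, 3769, 3225, 2785 and 3287. In Apc/Tgif tumours they read 316, 654, 354, 251, 313, 319 and 270. No library of any group entered the range of another: every Apc tumour lay above every wild-type colon, and every Apc/Tgif tumour lay below. Tgif1 rose by 2.02 in Apc tumours over wild-type colon (SE 0.183, limma adjusted p = 4.82e-08). In Apc/Tgif tumours it fell by 1.45 from wild-type colon (SE 0.183, limma adjusted p = 1.96e-06) and fell by 3.47 from Apc tumours (SE 0.165, limma adjusted p = 2.54e-10). Reads for the gene remained in all 7 tumours labelled null. Their highest library, the female replicate 2 at 654, was also the highest of its group for 5430405H02Rik, at 256 against 110 in the next library.

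Tgif2 (ENSMUSG00000062175.13, chromosome 2, 156840007 to 156855570, plus strand) went against its label in the total of the whole gene. The 5 wild-type libraries read 141, 234, 97.0, 175 and 158 normalized counts. The 7 Apc tumours read 598, 608, 681, 681, 690, 476 and 764. The 7 libraries labelled Apc/Tgif read 2492, 2958, 2329, 2141, 3107, 2696 and 2873. All 3 ranges were apart, in rising order from wild type to Apc to Apc/Tgif. The rise over wild-type colon was 2.02 in Apc tumours (SE 0.174, limma adjusted p = 2.54e-08) and 4.07 in Apc/Tgif tumours (SE 0.174, limma adjusted p = 1.60e-12), and the rise from Apc to Apc/Tgif tumours was 2.05 (SE 0.158, limma adjusted p = 1.14e-07). Reads from exons outside the deleted part would still be counted, so this total does not check the deletion, and each direction given for the Apc/Tgif tumours rests on the label.

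**Figure D1:**
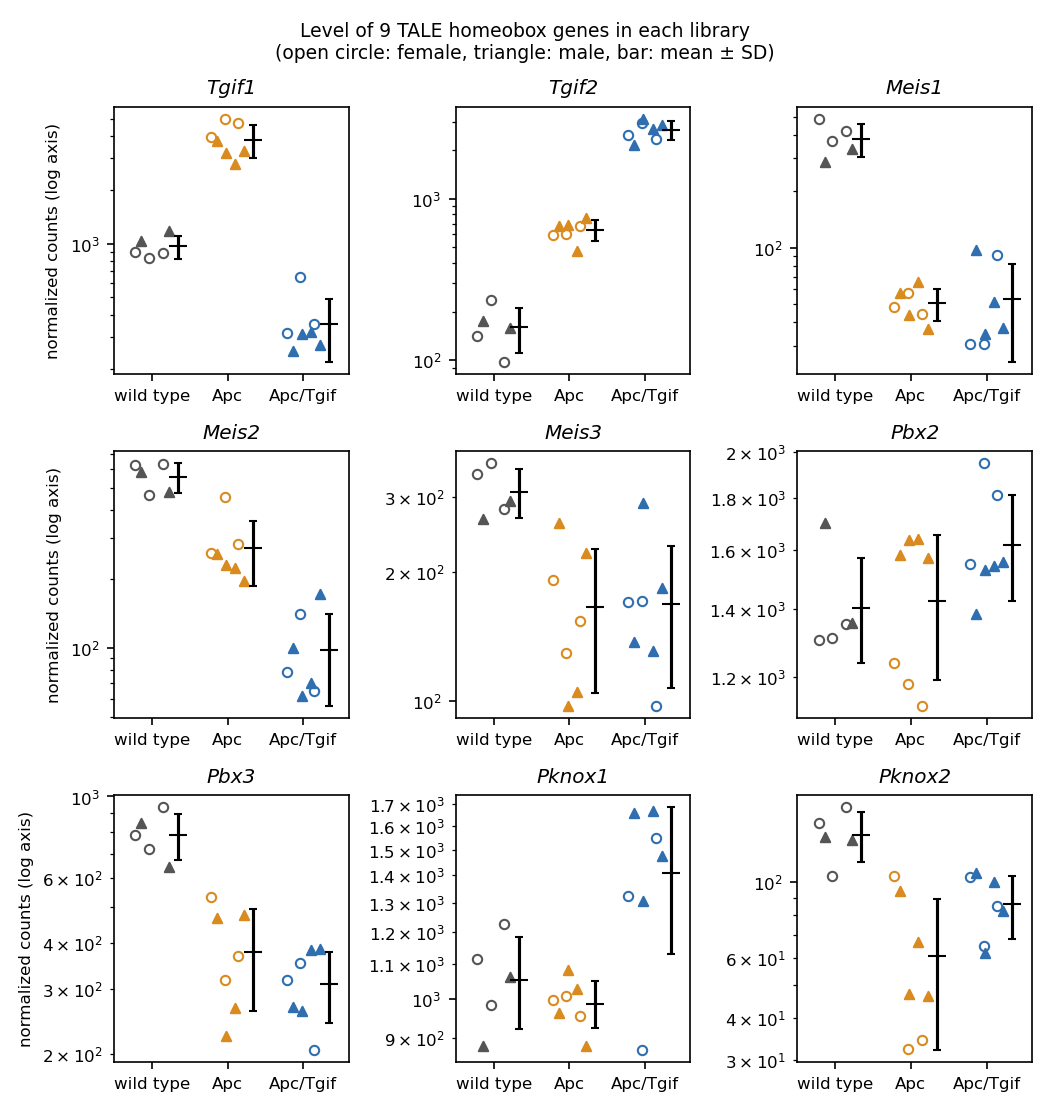
Normalized counts (log axis) of the 9 genes in each library of wild-type colon (n = 5), Apc tumours (n = 7) and Apc/Tgif tumours (n = 7), with open circles for females, triangles for males and bars for mean ± SD. The 3 groups occupy separate ranges for Tgif1 and for Tgif2, while Meis1 is at or under 97.7 in every tumour and at or above 286 in every wild-type colon.

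The balance of counts in the pair differed between wild-type colon and Apc tumours by less than the spread of the libraries and was turned over in Apc/Tgif tumours. The ratio of Tgif1 to Tgif2 counts, which does not depend on library scaling, spanned 3.54 to 9.12 in wild-type colon, 4.30 to 8.16 in Apc tumours and 0.0939 to 0.221 in Apc/Tgif tumours. On the log2 scale these ratios were 2.62 ± 0.508 (SD, n = 5), 2.55 ± 0.324 (SD, n = 7) and -2.96 ± 0.413 (SD, n = 7). Apc tumours differed from wild-type colon by -0.07 (exact two-sided permutation test, p = 0.790). Apc/Tgif tumours differed from wild-type colon by -5.58 (exact permutation p = 0.002525, adjusted over the 3 pairs 0.00379) and from Apc tumours by -5.52 (exact permutation p = 0.0005828, adjusted 0.00175), and each of these is the smallest p that the group sizes can give. Both genes were targeted in the Apc/Tgif tumours. Ratios and p-values of that group therefore describe counted reads and do not show the balance of intact transcripts. Per kilobase of annotated coding transcript, with no allowance for deleted exons, the mean level of Tgif1 was 779 and that of Tgif2 57.6 in wild-type colon. In Apc/Tgif tumours these levels were 286 and 950.

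**Figure D2:**
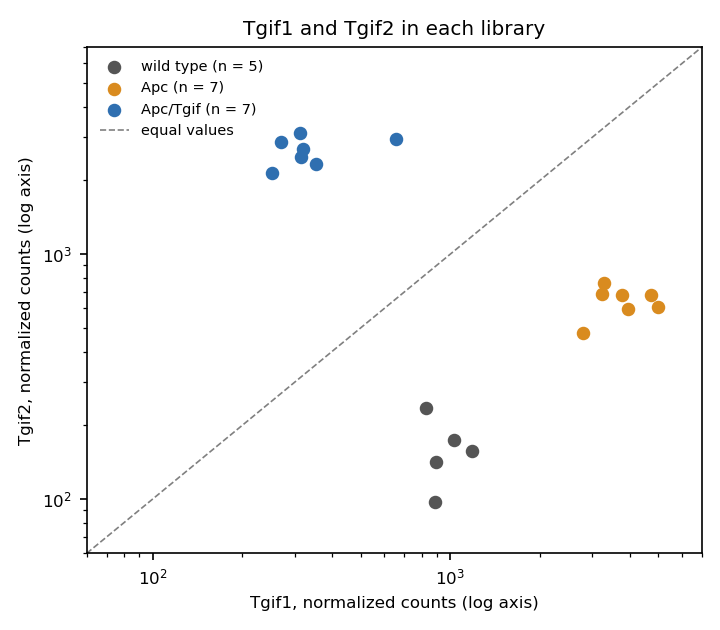
Tgif1 (x axis) against Tgif2 (y axis) in each library, normalized counts on log axes and not divided by gene length, with a dashed line at equal counts. Wild-type colon and Apc tumours lie below the line with ratios of Tgif1 to Tgif2 of 3.54 to 9.12, and the 7 Apc/Tgif tumours lie above it with ratios of 0.0939 to 0.221.

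The Tgif1 values of the sexes lay apart within Apc tumours: the 3 females read 3939 to 4965 and the 4 males 2785 to 3769. In wild-type colon the order was the other way, with 828.8 to 894 in 3 females and 1032 to 1181 in 2 males. In Apc/Tgif tumours the 3 females read 316 to 654 and the 4 males 251 to 319, with overlap. A difference between the sexes within a group was not tested. The test of whether the Apc effect itself differed by sex gave males minus females -0.82 (SE 0.303, limma adjusted p = 0.315), where 0.0108% of all genes passed. The same test of the Apc/Tgif effect against wild-type colon gave -0.89 (SE 0.303, limma adjusted p = 0.0965), where 3.4% of all genes passed. The latter passed when Apc/Tgif replicate 1 was left out (-1.09, limma adjusted p = 0.0424). Between the tumour groups the sex difference was -0.06 (limma adjusted p = 0.892).

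The genes next to the targeted pair were examined because the alleles were altered there. Dlgap1 (chromosome 17, 69969073 to 70821413, plus strand), which codes for a scaffold protein of the postsynaptic density, ends 22792 bases from the end of Tgif1, and the genes point towards each other. The 5 wild-type colons read 84.2, 88.7, 84.1, 69.0 and 64.3 normalized counts and the 7 Apc tumours 101, 104, 95.7, 126, 83.3, 174 and 85.1. The 7 Apc/Tgif tumours read 805, 904, 691, 705, 874, 714 and 1042, all of them above every library of the other groups. Dlgap1 was higher in Apc/Tgif than in Apc tumours by 2.91 (SE 0.168, limma adjusted p = 2.57e-09) and than in wild-type colon by 3.37 (SE 0.186, limma adjusted p = 4.58e-11). Its difference of 0.46 between Apc tumours and wild-type colon (limma adjusted p = 0.0477) lay at the threshold, with values of 0.35 to 0.51 when each library was left out, and was lost for 13 of the 19. Of the 10 enteric neuron and glia markers, 3 were lower and none higher in Apc/Tgif than in Apc tumours, beside 8.76% and 7.88% of all genes. The part of these markers in the Dlgap1 levels was not tested.

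On the other side of Tgif1, Myl12b, a myosin regulatory light chain gene 119587 bases away, fell by 0.31 from Apc to Apc/Tgif tumours (SE 0.0774, limma adjusted p = 0.00859), from 13057 to 15742 down to 9968 to 13038. In females alone this fall was -0.30 and was not called (limma adjusted p = 0.114). In a count over all tested genes within 1 Mb, chosen after these values had been seen, 3 of 12 near Tgif1 (25%) were called between the tumours: Dlgap1 higher, Myl12b and Clip4 lower. Near Tgif2, 4 of 35 (11.4%) were called, Dlgap4 higher and Spag4, Soga1 and Tldc2 lower, beside 16.6% of all genes. The protein-coding gene before Tgif2, Myl9, a myosin light chain gene of smooth muscle 58349 bases away, differed by -0.13 between the tumours (SE 0.161, limma adjusted p = 0.644).

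**Figure D3:**
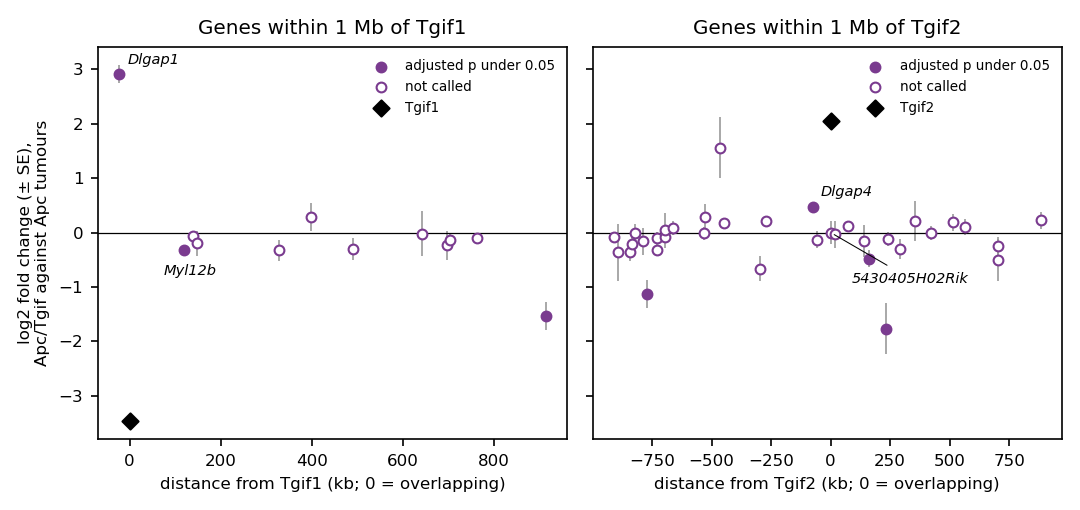
Log2 fold change (± SE) of Apc/Tgif against Apc tumours for the tested genes within 1 Mb of Tgif1 (left, 12 genes) and Tgif2 (right, 35 genes), against distance in kilobases, with filled points for limma adjusted p under 0.05 and a diamond for the targeted gene. Dlgap1 lies at 2.91 beside Tgif1 at -3.47, and 5430405H02Rik, which overlaps Tgif2, lies at 0.00029.

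Over the 9 genes, 7 were called in Apc tumours against wild-type colon, 2 higher and 5 lower, where 49.1% of all genes tested were called, 23.9% higher and 25.2% lower. In Apc/Tgif tumours against wild-type colon 8 were called, 2 higher and 6 lower, where 50.3% of all genes were called. Between the tumour groups 4 were called, Tgif2 and Pknox1 higher and Tgif1 and Meis2 lower, where 16.6% of all genes were called, 7.88% higher and 8.76% lower. With about every other gene called against wild-type colon, counts of 7 and 8 out of 9 say little about these genes as a class. Tgif1 and Tgif2 are the genes targeted in the Apc/Tgif group. Their calls and separate ranges in the comparisons of that group therefore do not bear on the class. The median log2 fold change over the 9 was -0.97, -0.94 and 0.04 in the 3 comparisons, beside -0.01, 0.002 and -0.01 over all genes. Groups did not overlap for 7 of the 9 genes in Apc tumours against wild-type colon, 2 higher and 5 lower, where this held for 29.4% of all genes, 14% higher and 15.4% lower. In Apc/Tgif tumours against wild-type colon it held for 5, 1 higher and 4 lower, beside 30.6% of all genes. Between the tumours it held for Tgif2, higher, and for Tgif1 and Meis2, lower, beside 4.07% of all genes, 2.3% higher and 1.77% lower. The comparisons with wild-type colon share the same 5 control libraries.

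**Figure D4:**
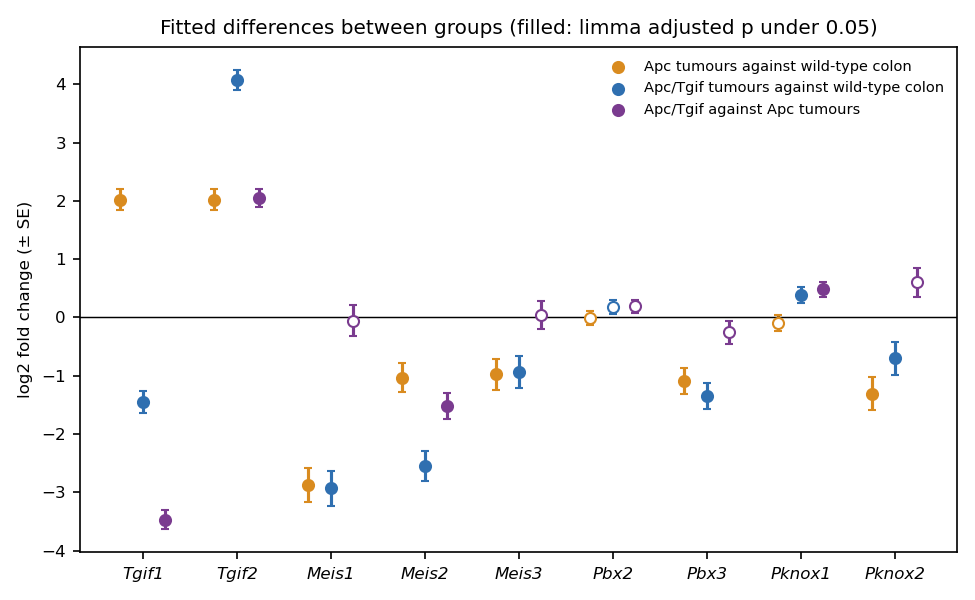
Log2 fold change (± SE) of each of the 9 genes in the 3 comparisons, with filled points where the limma adjusted p is under 0.05. Meis1, Meis2, Meis3, Pbx3 and Pknox2 lie below 0 against wild-type colon in both tumour groups, and between the tumours only Tgif1, Tgif2, Meis2 and Pknox1 are filled.

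The MEIS genes, whose proteins bind DNA beside PBX and Hox proteins, were all lower in tumours than in wild-type colon, and Meis2 alone was called between the tumours. Meis1 (chromosome 11, 18879817 to 19018985), known for its part with Hox proteins in blood stem cells, read 486, 370, 418, 286 and 338 normalized counts in wild-type colon. Its values were 48.2, 57.1, 44.1, 57.6, 44.0, 66.1 and 36.8 in Apc tumours and 30.7, 30.9, 91.3, 97.7, 34.6, 51.6 and 37.6 in Apc/Tgif tumours. Every tumour lay below every wild-type colon, and the tumour groups overlapped. Meis1 fell by 2.88 in Apc tumours (SE 0.293, limma adjusted p = 2.06e-07) and fell by 2.93 in Apc/Tgif tumours (SE 0.293, limma adjusted p = 1.10e-07). Between the tumours it differed by -0.05 (SE 0.265, limma adjusted p = 0.921).

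Meis2 (chromosome 2, 115863064 to 116065839) stepped down from group to group. It read 624.7, 463, 635, 585 and 476 normalized counts in wild-type colon. The Apc tumours read 260, 455, 285, 257, 229, 223 and 196, all below wild-type colon. The Apc/Tgif tumours read 78.1, 140, 64.7, 99.7, 61.7, 70.2 and 172, all below the Apc tumours. Its changes were -1.03 in Apc tumours (SE 0.253, limma adjusted p = 0.00223) and -2.55 in Apc/Tgif tumours (SE 0.253, limma adjusted p = 9.69e-08) against wild-type colon, and -1.52 between the tumours (SE 0.228, limma adjusted p = 0.000184). In females alone the fall in Apc tumours was -0.81 and was not called (limma adjusted p = 0.0684).

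Meis3 (chromosome 7, 16175090 to 16186504), known in Xenopus for a role in the hindbrain, averaged 308 ± 39.8 normalized counts over the 5 wild-type colons, 166 ± 61.4 over the 7 Apc tumours and 169 ± 61.2 over the 7 Apc/Tgif tumours (SD). The wild-type libraries spanned 266 to 360 and the Apc tumours 97.6 to 260, without overlap, while the highest Apc/Tgif tumour, at 290, lay inside the wild-type range. Meis3 fell by 0.97 in Apc tumours (SE 0.268, limma adjusted p = 0.00543) and fell by 0.94 in Apc/Tgif tumours (SE 0.268, limma adjusted p = 0.00677). In males alone neither fall was called, at -0.84 (limma adjusted p = 0.177) and -0.66 (limma adjusted p = 0.257).

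The PBX genes, which code for the partners of MEIS and PKNOX proteins, did not move together. Pbx3 (chromosome 2, 34171457 to 34373142) spanned 643 to 935 normalized counts in wild-type colon, 224 to 534 in Apc tumours and 205 to 385 in Apc/Tgif tumours. Every tumour lay below every wild-type colon. Pbx3 fell by 1.09 in Apc tumours (SE 0.218, limma adjusted p = 0.000394) and fell by 1.35 in Apc/Tgif tumours (SE 0.218, limma adjusted p = 3.73e-05), and differed by -0.26 between the tumours (SE 0.197, limma adjusted p = 0.426).

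Pbx2 (chromosome 17, 34591266 to 34597400), a broadly expressed member, had 1404 ± 167, 1424 ± 233 and 1618 ± 194 normalized counts in wild-type colon, Apc tumours and Apc/Tgif tumours (SD, n = 5, 7 and 7). None of its differences was called, at -0.01, 0.18 and 0.19 (limma adjusted p = 0.942, 0.220 and 0.253). Within the Apc tumours every female lay below every male, and within the Apc/Tgif tumours the females tended higher, with ranges that met. The 3 female Apc tumours read 1236, 1180 and 1121 and the 4 males 1581, 1637, 1640 and 1570, whereas the 3 female Apc/Tgif tumours read 1551, 1950 and 1815 and the 4 males 1384, 1529, 1544 and 1556. The change from Apc to Apc/Tgif tumours was lower in males than in females (log2 difference, males minus females, -0.68, SE 0.149, limma adjusted p = 0.00464), a test that 23.6% of all genes passed. In females alone Pbx2 rose by 0.58 between the tumours (limma adjusted p = 0.011) and by 0.42 from wild-type colon to Apc/Tgif tumours (limma adjusted p = 0.0221). The 5′ end of Pbx2 overlaps Gpsm3 on the same strand, with which it shares 4.26% of its 75-base words.

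The PKNOX genes, also called Prep genes, code for further partners of PBX proteins. Pknox1 (chromosome 17, 31564734 to 31607693) read 1116, 983, 1226, 882 and 1063 normalized counts in wild-type colon and 998, 1009, 956, 963, 1084, 1028 and 882 in Apc tumours. The Apc/Tgif tumours read 1324, 871, 1550, 1658, 1305, 1668 and 1477, so that 6 of the 7 lay above every library of the other groups and the other, female replicate 2, lay below them all. Pknox1 was higher in Apc/Tgif than in Apc tumours by 0.48 (SE 0.126, limma adjusted p = 0.0120). With library totals made equal the difference was 0.43 and in females alone 0.30, and neither was called (limma adjusted p = 0.0556 and 0.303). Against wild-type colon the rise was 0.39 (SE 0.139, limma adjusted p = 0.0269). It was lost when any of wild-type replicates 2, 4 and 5 or Apc/Tgif replicates 3, 4 and 6 was left out, with values of 0.30 to 0.38, and in females alone (0.14, limma adjusted p = 0.614).

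Pknox2 (chromosome 9, 36890982 to 37147407) averaged 138 ± 22.9 normalized counts over the 5 wild-type colons, 60.7 ± 28.7 over the 7 Apc tumours and 86.3 ± 18.1 over the 7 Apc/Tgif tumours (SD). All 7 Apc tumours, at 32.4 to 104.1, lay below the wild-type range of 104.6 to 166, the highest of them by less than 1 normalized count. Pknox2 fell by 1.31 in Apc tumours (SE 0.280, limma adjusted p = 0.000736). Its change of -0.70 in Apc/Tgif tumours (SE 0.280, limma adjusted p = 0.0429) was lost without any of wild-type replicates 1, 3, 4 and 5 or Apc/Tgif replicates 2, 3, 5 and 7, with values of -0.74 to -0.62. The call was also lost with no filter, equal library totals, quantile normalization, quality weights, females alone, males alone, and the distal colon or smooth muscle score as covariate. Between the tumours it differed by 0.60 (SE 0.253, limma adjusted p = 0.115), which was called without Apc replicate 1 (0.78, limma adjusted p = 0.0307) and with quality weights (0.76, limma adjusted p = 0.0378).

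The lower levels of Meis1, Meis2, Meis3, Pbx3 and Pknox2 in tumours came with lower levels of muscle, nerve and B cell markers. All 10 smooth muscle markers were lower than in wild-type colon in each tumour group, beside 25.2% and 25.5% of all genes. None of them was called between the tumour groups. Their summed level spanned 206707 to 306998 normalized counts in wild-type colon, 13463 to 23086 in Apc tumours and 10316 to 19207 in Apc/Tgif tumours. Of the 10 enteric neuron and glia markers, 9 were lower and Ret was higher in Apc tumours, and all 10 were lower in Apc/Tgif tumours, with summed levels of 2073 to 3716, 737 to 1728 and 217 to 666 in the 3 groups. Kit and Ano1, markers of interstitial cells of Cajal, fell in each tumour group. So did all 4 B cell markers, and Cd4 and Cd8a of 5 T cell markers. All 4 neutrophil markers were higher in each tumour group, and of 5 macrophage markers 1 was higher in Apc and 5 in Apc/Tgif tumours. Of 8 fibroblast markers, 4 were higher and 2 lower in Apc tumours, and 3 were higher and 2 lower in Apc/Tgif tumours. Among 6 endothelial markers, Cdh5 was higher in each tumour group and Tek was lower in Apc tumours. The share of all genes that was higher was 23.9% in Apc and 24.8% in Apc/Tgif tumours. No marker of these lists was at 0 in any group. In bulk tissue, fewer cells of a type and less RNA per cell cannot be told apart. The part of these markers in the falls of the 5 genes was not tested.

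Epithelial markers were present in every group, with summed levels of 470141 to 606762 in wild-type colon, 282444 to 542809 in Apc tumours and 329408 to 418143 in Apc/Tgif tumours. Of those 10 markers, 5 were lower and Krt18 was higher than in wild-type colon in each tumour group, and Krt20, a marker of differentiated colonocytes, was lower in Apc/Tgif than in Apc tumours. Beside the fall of Meis2 between the tumours, the fibroblast markers Col1a1, Dcn and Pdgfrb of 8 listed were lower, as were the enteric markers Snap25, Ret and Uchl1 of 10. Kit of 2 markers of interstitial cells of Cajal, Cdh5 of 6 endothelial and Cxcr2 of 4 neutrophil markers were also lower. In the other direction, 4 of 5 macrophage markers were higher, and no smooth muscle, B cell or T cell marker was called. Among all genes, 8.76% were lower and 7.88% higher between the tumours. The summed fibroblast level spanned 80811 to 166606 in Apc and 49242 to 99077 in Apc/Tgif tumours. The part of these markers in the fall of Meis2 was not tested.

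Within a tumour group, no relation of a member to a marker list passed the test. Of 72 relations between the 9 genes and the mean log2 level of the smooth muscle, enteric, fibroblast and epithelial lists, each over 7 tumours, none had an adjusted p under 0.05 by exact permutation for Pearson's r or Spearman's rho. For r, 2 had an unadjusted p under 0.05. These were Meis2 with the epithelial list in Apc tumours (Pearson's r = -0.83, exact permutation p = 0.0125, and Spearman's rho = -0.68, exact permutation p = 0.11) and Pknox1 with the enteric list in Apc/Tgif tumours (r = -0.87, exact permutation p = 0.0127, and rho = -0.79, exact permutation p = 0.048). Without the 2 tumours farthest from the median of the marker list, r was -0.40 and -0.47. For rho alone, the unadjusted exact permutation p was under 0.05 for Tgif2 with the fibroblast list in Apc tumours (rho = -0.86, exact permutation p = 0.0238), and in Apc/Tgif tumours for Pbx2 with the fibroblast list and Pknox1 with the epithelial list (exact permutation p = 0.048 for each). The smallest adjusted p was 0.457 for r.

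Divided by the mean length of its coding transcripts, each gene could be ordered within a group. The annotated length was used in every group, so Tgif1 and Tgif2 values of Apc/Tgif tumours make no allowance for deleted exons. In wild-type colon Pbx2 was at 815 normalized counts per kilobase (758 to 987) and Tgif1 at 779 (670 to 954), and their ranges overlapped. Pknox1 at 607 and Pbx3 at 585 followed with overlapping ranges, then Meis3 at 252 (218 to 294) and Meis2 at 175 (145 to 199), whose ranges did not overlap. Meis1 at 78.3, Pknox2 at 76.3 and Tgif2 at 57.6 closed the order with overlapping ranges.

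In Apc tumours Tgif1 led at 3082 normalized counts per kilobase (2250 to 4011), apart from Pbx2 at 827 (651 to 952). Pknox1 stood at 570, Pbx3 at 282 (167 to 397) and Tgif2 at 230 (170 to 273), the last of these within the range of Pbx3. Meis1 was lowest at 10.4 (7.58 to 13.6), below every value of Pknox2. In Apc/Tgif tumours Tgif2 at 950 (766 to 1112), Pbx2 at 940 (803 to 1132) and Pknox1 at 811 (502 to 961) had overlapping ranges, Tgif1 was the fourth at 286, and Meis1 was again lowest at 11.0. With the longest transcript in place of the mean length, 7 of the 9 ranks in wild-type colon and 2 in each tumour group changed, and the place of Tgif2 in wild-type colon became the seventh.

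**Figure D5:**
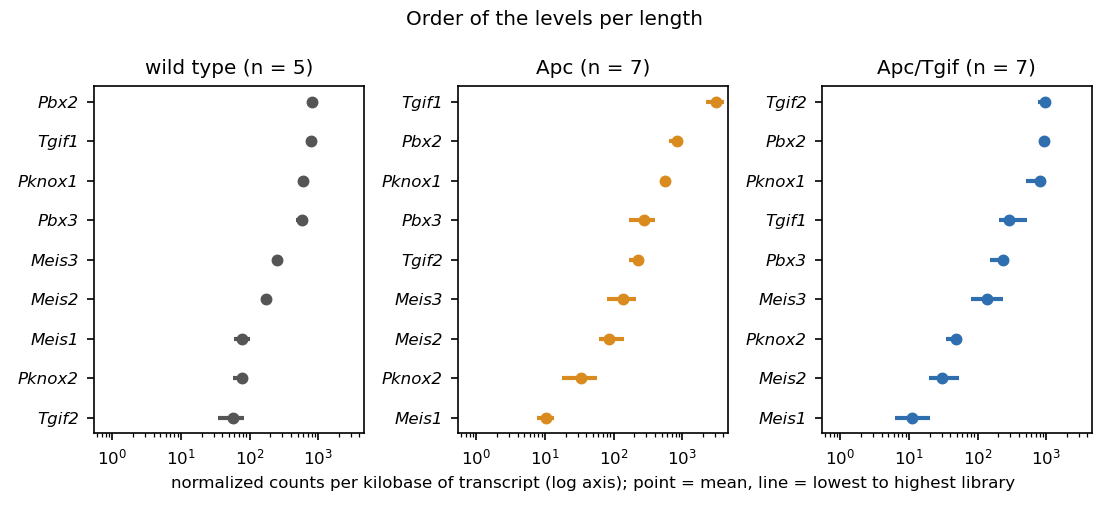
Normalized counts per kilobase of coding transcript (log axis) for the 9 genes in each group, ordered by the mean, with points for means and lines from the lowest to the highest library. Tgif1 stands at 3082 in Apc tumours, and Tgif2 moves from the last place in wild-type colon (57.6) to the first in Apc/Tgif tumours (950). Lengths are means of annotated transcripts, with no allowance for deleted exons. With the longest transcript, Tgif2 has rank 7 in wild-type colon.

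Genes with a pattern like each member were found by the mean absolute difference of standardised log2 values over the 19 libraries, among the 12270 tested genes of known name whose mean reached 100 normalized counts. Closest to Tgif2 were Slc7a5, a transporter of large neutral amino acids (0.178 SD units), the homeodomain-only gene Hopx (0.191) and the adhesion receptor gene Adgrg1 (0.217). Slc7a5 had means of 560.5, 1779 and 3851 normalized counts in wild-type colon, Apc and Apc/Tgif tumours, rising in the same order as Tgif2. Closest to Tgif1 were the Wnt receptor gene Fzd3 (0.336), the phosphatase gene Dusp22 (0.339) and Gkap1 (0.365), with Fzd3 at 104, 372 and 83.7. Closest to Meis1 were Mrvi1, which acts in nitric oxide signalling in smooth muscle (0.195), the kinase anchoring gene Akap6 (0.202) and the ETS factor gene Etv1 (0.209). Plekha3 (0.230) was closest to Meis2, Malat1 (0.353) to Meis3, Pink1 (0.297) to Pbx2, Rundc3b (0.294) to Pbx3, Tbc1d25 (0.312) to Pknox1 and Vps13c (0.326) to Pknox2. The groups set most of these likenesses, since all 19 libraries entered them.

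Of 9 further TALE genes listed, 6 passed the filter. In Apc tumours 3 were higher and 1 lower than in wild-type colon, in Apc/Tgif tumours 3 were higher and none lower, and between the tumours 1 was higher and 1 lower. The shares of all genes higher and lower were 23.9% and 25.2%, 24.8% and 25.5%, and 7.88% and 8.76% in these 3 comparisons. The Iroquois genes Irx4 and Irx5 are known for patterning of the heart and nervous system. In wild-type colon they were near 0, at 0.906 and 0.426 normalized counts on average. The third higher gene, Irx3, averaged 5.92 there, with a highest library of 12.93, while its lowest Apc tumour was at 11.15. All 3 passed the filter through the tumours, so their calls against wild-type colon support nothing about the list. Irx4 spanned 77.3 to 775 in Apc and 228 to 1940 in Apc/Tgif tumours and was higher in the latter by 1.93 (SE 0.507, limma adjusted p = 0.0126). In females alone this was 1.87 and was not called (limma adjusted p = 0.120). Irx5 went the other way, from 69.1 to 821 in Apc to 16.7 to 235 in Apc/Tgif tumours, a difference of -1.97 (SE 0.596, limma adjusted p = 0.0286). It was not called without Apc replicate 2, 4 or 5 or Apc/Tgif replicate 1, 3 or 5, at -1.84 to -1.57. Both pairs of tumour ranges overlapped, and fitted folds against wild-type levels this low depend on the added count.

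Of 14 genes for TGIF corepressors and Smad partners, 6 were higher and 1 lower in Apc tumours, 5 higher and 1 lower in Apc/Tgif tumours, and Smad3 alone was called between the tumours. Of all genes, 23.9% were higher and 25.2% lower in Apc tumours and 24.8% and 25.5% in Apc/Tgif tumours. The median change over the 14 between the tumours was 0.03, beside -0.01 over all genes. Smad3, a mediator of TGF-beta signals that TGIF proteins bind, spanned 1805 to 2295 normalized counts in wild-type colon, 3003 to 3568 in Apc tumours and 3886 to 5315 in Apc/Tgif tumours, without overlap. It was higher in Apc/Tgif than in Apc tumours by 0.40 (SE 0.0819, limma adjusted p = 0.00235). In females alone this was 0.41 and was not called (limma adjusted p = 0.0657). Rxra, the retinoid receptor gene, was lower than in wild-type colon, at -0.91 in Apc tumours (SE 0.169, limma adjusted p = 0.000184) and -1.05 in Apc/Tgif tumours (SE 0.169, limma adjusted p = 3.59e-05).

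Of 12 measured genes known to respond to TGF-beta, 9 were higher and none lower than in wild-type colon in each tumour group, where 23.9% and 24.8% of all genes were higher and 25.2% and 25.5% lower. Their median change was 0.93 in Apc and 0.96 in Apc/Tgif tumours, beside -0.01 and 0.002 over all genes. Pmepa1, a feedback inhibitor of the pathway, rose by 1.97 in Apc tumours (SE 0.163, limma adjusted p = 1.51e-08) and by 2.06 in Apc/Tgif tumours (SE 0.163, limma adjusted p = 5.76e-09), and differed by 0.09 between them (limma adjusted p = 0.746). Between the tumours 3 of the 12 were higher and 1 lower, beside 7.88% and 8.76% of all genes. The higher ones were Id1, Id2 and Id3, which code for inhibitors of helix-loop-helix factors. Id2 spanned 1022 to 3025 normalized counts in Apc and 2623 to 5028 in Apc/Tgif tumours, a rise of 0.95 (SE 0.203, limma adjusted p = 0.00337), which in females alone was 0.46 and was not called (limma adjusted p = 0.194). The rises of Id1 (0.53, limma adjusted p = 0.0397) and Id3 (0.45, limma adjusted p = 0.0374) lay at the threshold and were lost with equal library totals (0.48 and 0.40). Id1 was also lost without any of Apc replicates 1, 2, 4 and 7 or Apc/Tgif replicates 1, 2, 3, 5, 6 and 7 (0.43 to 0.55), and Id3 without any of Apc replicates 1, 4 and 6 or Apc/Tgif replicates 2, 3, 6 and 7 (0.37 to 0.45).

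Of 11 Hox genes and other partners of PBX and MEIS proteins, 3 were higher and 3 lower in Apc tumours, 2 higher and 2 lower in Apc/Tgif tumours, and Hoxa9 alone was called between the tumours. With 23.9% of all genes higher and 25.2% lower in Apc tumours, and 24.8% and 25.5% in Apc/Tgif tumours, these counts say little about the list. Hoxa9, a posterior Hox gene, spanned 1190 to 1369 normalized counts in wild-type colon, 3011 to 4575 in Apc tumours and 5577 to 7638 in Apc/Tgif tumours. The ranges did not overlap, and Hoxa9 was higher in Apc/Tgif than in Apc tumours by 0.76 (SE 0.0932, limma adjusted p = 2.98e-05). Pbxip1, which codes for a PBX-interacting protein, was lower than in wild-type colon in both tumour groups, at -0.96 (limma adjusted p = 9.35e-06) and -0.70 (limma adjusted p = 0.000232). The mean log2 level of 6 distal colon Hox markers spanned 9.85 to 10.9 in wild-type colon, 4.33 to 11.1 in Apc tumours and 5.54 to 11.1 in Apc/Tgif tumours, so tumours of one group differed in these genes by more than the groups did. The part of position along the colon in the Hox levels was not tested.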

How the data were processed

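The deposited values are normalized counts, a signal in which the authors divided each library by a factor, as the values show. The submitters' processing notes list Salmon, DESeq2 and the builds GRCm38 and mm10, and none of the sources used here gives versions, annotation or strand. In each library 83.9 to 87.0% of low values were whole multiples of 1 step within 0.1 of it, too few to recover reads for a count test. Genes with at least 10 normalized counts in at least 5 libraries were tested with limma 3.58.1 (R 4.3.3) on log2(normalized count + 1), with trend and robust moderation and terms for group and sex, over all 19 libraries. Sex differences used 1 mean per group and sex. Single values used exact permutation tests (scipy 1.17.1). The steps were tested on simulated data. Words of 75 bases, lengths and positions came from GENCODE M21, promoters from RefSeq. Genes named beside the members were up to 4 per list by smallest p, neighbours or overlapping genes, and the 3 most alike. Members and lists were chosen with earlier results of these data known. Some genes that the naming rule selects are left unnamed.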

Additional observations from a re-analysis of the deposited data

Results flagged for a closer look

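Of 45 groups of 5 or 7 libraries examined by Dixon's criterion, 5 held a library far from the rest, where chance gives about 1 in 20. Tgif1 was 654 normalized counts in female replicate 2 of the Apc/Tgif tumours, against 354 in the next library. Meis2 was 454.5 in female replicate 2 of the Apc tumours, against 285 in the next. Pbx2 was 1700 in male replicate 4 of wild-type colon, against 1356 in the next. The antisense partner of Tgif2, 5430405H02Rik, was 148.8 in male replicate 7 of the Apc tumours, against 117 in the next, and 255.6 in female replicate 2 of the Apc/Tgif tumours, against 110 in the next. The last is the same library that was highest for Tgif1 and lowest for Pknox1 in its group.

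The change from Apc to Apc/Tgif tumours differed between the sexes for Pbx2, with males minus females at -0.68 on the log2 scale (limma adjusted p = 0.00464), and for Myl9, the neighbour of Tgif2, at -0.851 (limma adjusted p = 0.0295). In this test 23.6% of all genes passed.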

How the results depend on the processing

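With each library left out in turn, 7 of the 9 genes were called in Apc tumours against wild-type colon every time, 6 to 8 in Apc/Tgif tumours against wild-type colon and 4 to 5 between the tumours. The count of sex differences in Apc/Tgif tumours against wild-type colon went from 0 to 1 without Apc/Tgif replicate 1. A smooth muscle score as covariate left 0 of the 9 called in either comparison with wild-type colon, and 43 and 33 genes in all. That score spanned 13.8 to 14.3 in wild-type colon and 9.14 to 10.7 in tumours, so score and group cannot be told apart there. Under it the sign turned in Apc tumours for Hdac1 (-0.55), Hdac2 (-0.97), Id2 (-1.21), Mkx (2.87), Pbxip1 (0.54), Pknox2 (0.46) and Rxra (0.56), and in Apc/Tgif tumours for Hdac1 (-0.88), Hdac2 (-1.19), Hoxa13 (1.44), Id2 (-0.37), Myl12b (0.072), Pbxip1 (0.88), Pknox1 (-0.21), Pknox2 (1.15) and Rxra (0.50), none of them called. With equal library totals the median of all genes was 0.19, 0.15 and -0.06 in the 3 comparisons, beside -0.01, 0.002 and -0.01 as reported, and Pbx2 was called in Apc/Tgif tumours against wild-type colon (0.33). Pknox1 in Apc/Tgif tumours against wild-type colon was also lost with quantile normalization (0.31) and with the 2 groups alone (0.38), beside females alone (0.14). Scaling by TMM was not run, since it needs counts. No paired analysis was possible because the labels give no replicate numbers that groups share. Depth limits the precision of low genes such as Meis1, at 30.7 to 97.7 normalized counts in tumours, and Pknox2, at 32.4 to 106.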
